A study of Mus musculus with 10 samples.

Results

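Constitutive distal p65 regions are stretches of the mouse genome that appeared in all 4 deposited peak lists of p65 binding in T cells and lay away from the ends of protein-coding genes. The entries of each list were merged into regions, and regions of different lists were joined wherever they overlapped by at least 1 bp. A joined region was kept when it held entries of every list and its strongest summit lay more than 1 kb from each protein-coding gene start or end, but inside a gene or within 50 kb of it. This gave 416 of 11923 joined regions (genome build mm10), of which 289 were inside a gene and 127 outside. They were 25.3% of the 1644 regions found in every list (95% Wilson interval 23.3% to 27.5%). The other regions in every list comprised 1197 within 1 kb of a gene end and 31 farther than 50 kb from any gene. The regions were chosen by presence in the lists and by distance to gene ends, so neither is a result. The word distal held for only some of them, since 133 had a summit within 500 bp of an annotated transcript start.

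The study mapped p65 by chromatin immunoprecipitation and sequencing in regulatory T cells (Treg), which restrain immune responses, and in conventional T cells (Tconv), both isolated from the lymph nodes and spleens of mice of the C57BL/6 strain. The groups were Treg stimulated for 3 h with plate-bound anti-CD3, soluble anti-CD28 and IL-2 at 10 ng/ml, Tconv stimulated for 3 h in the same way with IL-2 at 2 ng/ml, unstimulated Treg and unstimulated Tconv. Cell type and IL-2 concentration cannot be told apart in the stimulated lists, and the sources used here give neither the culture of the unstimulated cells nor the age of the mice nor the purity of the sort. Each group had 2 libraries and the series had 2 further libraries of pooled input chromatin, 10 in all, but each group has 1 list made from pooled libraries. There is therefore no spread between replicates and no test between groups, and each Wilson interval covers only the counting error over regions, which are not replicates and may lie side by side.

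p65 (RelA) is a subunit of NF-kB, a family of dimeric transcription factors that IkB proteins hold in the cytoplasm of resting cells. Signals from the T cell receptor and CD28 lead to the destruction of the IkB proteins, and the freed dimers enter the nucleus and bind kB motifs in promoters and enhancers. Among their best known targets are genes of the pathway itself, whose products then limit it. The stimulated Treg list held 11077 regions, the stimulated Tconv list 5734, the unstimulated Treg list 3208 and the unstimulated Tconv list 2961. The 416 regions made up 3.76%, 7.25%, 13.0% and 14.0% of these lists in the same order. Of the defining Treg genes, Foxp3, Ikzf2, Il2ra, Ctla4 and Tnfrsf18, 5 had a region in the stimulated Treg list, 3 in the stimulated Tconv list, 3 in the unstimulated Treg list and 0 in the unstimulated Tconv list. Of 5 T cell genes, 5, 4, 4 and 2 had a region in the same order of lists. Of 5 B cell genes none had a region in any list, and of 5 myeloid genes 1 had a region in each stimulated list. Peaks do not measure expression, so these counts do not show the purity of the cells.

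Sequences were printed for 6 regions at a transcript start, as examples with a kB motif, an NRF1 motif or neither. They are not typical, since a kB motif was found at 15 and an NRF1 motif at 9 of the 133 starts. Each is the window of 250 bases before to 50 bases after a RefSeq transcript start (build GRCm38.p6, with the same coordinates as mm10), written 5′ to 3′ on the strand of the transcript. The starts of Nr4a1 (chr15:101266596-101266895, plus strand), Nfkb2 (chr19:46304487-46304786, plus strand) and Tgif1 (chr17:70849741-70850040, minus strand) held a kB motif, printed in capitals. The starts of the noncoding gene B330016D10Rik near Spen (chr4:141545912-141546211, plus strand) and of Egf (chr3:129725037-129725336, minus strand) held the NRF1 motif, whose 10 bases are the capitals. The start of Nadk (chr4:155563565-155563864, plus strand), which had the highest fold of the 416 regions in both unstimulated lists, held neither and has no capitals. Both strands were searched, and the capitals at Nfkb2 cover 3 matches because neighbouring matches overlap. At Nr4a1 the motif began at position −3 from the start, whereas the summit lay at −206.
Nr4a1: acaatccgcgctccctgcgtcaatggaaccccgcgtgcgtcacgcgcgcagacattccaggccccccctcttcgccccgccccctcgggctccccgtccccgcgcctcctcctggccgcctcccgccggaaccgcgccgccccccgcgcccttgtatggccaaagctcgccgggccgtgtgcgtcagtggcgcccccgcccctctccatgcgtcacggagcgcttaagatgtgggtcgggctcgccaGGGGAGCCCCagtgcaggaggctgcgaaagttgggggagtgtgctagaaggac
Nfkb2: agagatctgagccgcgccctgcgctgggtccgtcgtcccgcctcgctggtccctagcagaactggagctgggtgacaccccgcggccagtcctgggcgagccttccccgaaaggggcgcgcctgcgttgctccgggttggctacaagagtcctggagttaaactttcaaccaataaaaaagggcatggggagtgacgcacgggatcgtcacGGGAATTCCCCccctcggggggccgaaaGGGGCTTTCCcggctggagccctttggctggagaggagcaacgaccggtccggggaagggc
Tgif1: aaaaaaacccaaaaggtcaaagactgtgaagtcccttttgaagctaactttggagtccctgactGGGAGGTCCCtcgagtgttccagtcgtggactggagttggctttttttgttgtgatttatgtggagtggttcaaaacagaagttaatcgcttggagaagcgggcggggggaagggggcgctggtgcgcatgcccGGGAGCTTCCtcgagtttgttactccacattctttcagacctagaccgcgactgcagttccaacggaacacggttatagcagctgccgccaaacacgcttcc
B330016D10Rik: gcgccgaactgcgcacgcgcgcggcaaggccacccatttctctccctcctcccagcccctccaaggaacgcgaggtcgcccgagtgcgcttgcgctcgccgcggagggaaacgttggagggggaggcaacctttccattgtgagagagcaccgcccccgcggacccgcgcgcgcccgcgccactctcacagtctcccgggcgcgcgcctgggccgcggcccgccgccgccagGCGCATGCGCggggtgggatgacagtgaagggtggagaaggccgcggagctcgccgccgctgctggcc
Egf: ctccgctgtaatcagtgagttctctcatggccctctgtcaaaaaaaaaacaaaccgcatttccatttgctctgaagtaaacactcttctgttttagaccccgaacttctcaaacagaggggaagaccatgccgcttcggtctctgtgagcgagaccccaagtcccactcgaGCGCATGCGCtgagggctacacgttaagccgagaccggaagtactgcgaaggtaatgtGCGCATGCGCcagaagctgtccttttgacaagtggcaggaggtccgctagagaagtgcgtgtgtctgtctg
Nadk: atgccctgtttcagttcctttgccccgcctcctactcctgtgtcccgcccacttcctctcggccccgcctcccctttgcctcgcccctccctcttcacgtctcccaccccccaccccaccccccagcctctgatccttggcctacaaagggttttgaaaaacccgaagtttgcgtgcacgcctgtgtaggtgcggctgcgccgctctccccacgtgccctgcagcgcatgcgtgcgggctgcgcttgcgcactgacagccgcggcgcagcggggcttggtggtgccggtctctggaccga

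The strength of a region is the authors' fold enrichment at its strongest summit over the local background, which describes and ranks regions within a list. Within the stimulated Treg list the 416 regions had a median fold of 17.1, against 11.5 for the whole list, and within the stimulated Tconv list 15.9, against 12.8. Within the unstimulated Treg list their median was 10.2, against 8.30, and within the unstimulated Tconv list 9.07, against 8.49. The median of the regions was thus above that of each list, though only a little in unstimulated Tconv. Above the list median were 323, 275, 260 and 221 of 416 in stimulated Treg, stimulated Tconv, unstimulated Treg and unstimulated Tconv. The last of these is 53.1%. A region had to be present in the shorter lists to be a member, so this is a description of the choice. The folds ran very widely, between 2.08 and 95.3 in stimulated Treg, 2.21 and 69.8 in stimulated Tconv, 2.16 and 72.2 in unstimulated Treg, and 2.55 and 69.6 in unstimulated Tconv.

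The regions fell into a class at transcript starts and a class away from them. The rule did not use transcript starts, but it removed those near a protein-coding gene end, so it limited which starts a region could cover. A transcript start lay within 500 bp of the summit in 133 of 409 regions (32.5%, interval 28.2% to 37.2%), with a median distance of 86 bp, and 7 regions on chromosome 18 were not covered by the table of starts. Over all joined regions, gene-end regions included, this share was 31.4% (3644 of 11622). It was 4.81% (108 of 2246) for distal regions found in both stimulated lists and in neither unstimulated list, 32.6% (46 of 141) for distal regions found in both unstimulated lists only, and 79.0% (919 of 1164) for constitutive gene-end regions. The intervals of constitutive distal regions and of distal regions in the stimulated lists alone (3.998% to 5.77%) did not overlap. Over all distal regions the share was 8.59% (570 of 6636, interval 7.94% to 9.29%), below that of the constitutive ones. With all lists at equal length the share of constitutive distal regions was 17.4% (32 of 184). Shares of the other groups were not computed in that setting, so 17.4% cannot be compared with those above. Of the 133 starts, 108 belonged to the gene the region was assigned to, 24 to a long noncoding RNA gene and 1 to another protein-coding gene, and 117 of the 133 regions lay inside a gene. These 108 are starts inside the outermost bounds of the gene, which is how they passed the distance rule. The table of starts does not hold every gene: of the 276 regions away from starts, 204 were assigned to a gene with a start in it and 72 were not, so some of the 72 may lie at a start that was not seen.

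**Figure D1:**
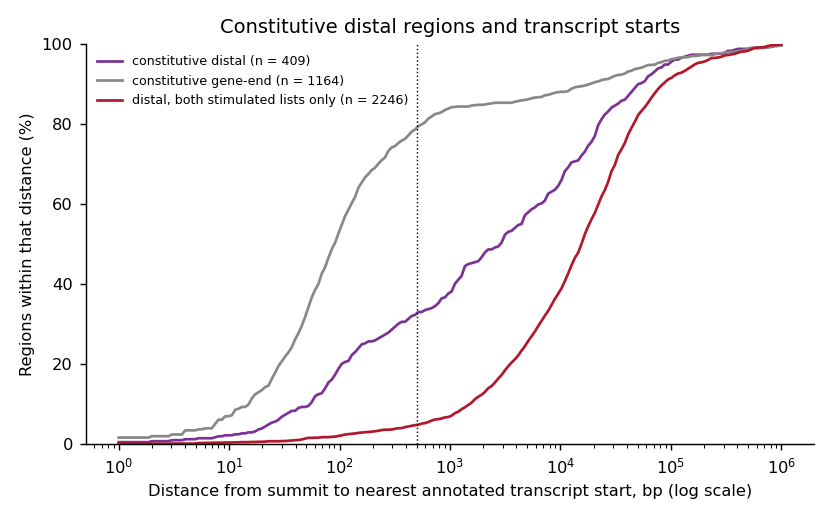
Cumulative percent of regions (vertical axis) against the distance in bp, on a log scale, from the strongest summit to the nearest RefSeq transcript start (horizontal axis). At the dotted line, 500 bp, the curve of constitutive distal regions stands at 32.5%, that of distal regions in both stimulated lists only at 4.81% and that of constitutive gene-end regions at 79.0%.

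The 2 classes differed in strength within the lists. In the stimulated Treg list the median fold was 13.0 at starts, against 19.9 away from starts, and in the stimulated Tconv list 13.1, against 17.7. In the unstimulated Treg list it was 12.6 at starts, against 9.09 away, and in the unstimulated Tconv list 12.2, against 8.12. Regions at starts thus had the higher median in the unstimulated lists and the lower median in the stimulated lists. The stimulated order turned round when all lists were reduced to equal length, where the median at starts exceeded that away from starts by 0.725 fold in stimulated Treg and 1.23 fold in stimulated Tconv, over 32 regions at starts and 152 away. The unstimulated order held in that setting. Among regions away from starts whose gene was in the table of starts, the medians were 19.8 in stimulated Treg, 17.9 in stimulated Tconv, 9.40 in unstimulated Treg and 8.37 in unstimulated Tconv. Regions above their list median numbered 87, 69, 97 and 91 of 133 at starts and 230, 202, 158 and 126 of 276 away from starts, in stimulated Treg, stimulated Tconv, unstimulated Treg and unstimulated Tconv. The medians of constitutive gene-end regions were 13.3, 13.9, 13.2 and 12.8 in the same order, near those of the class at starts.

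**Figure D2:**
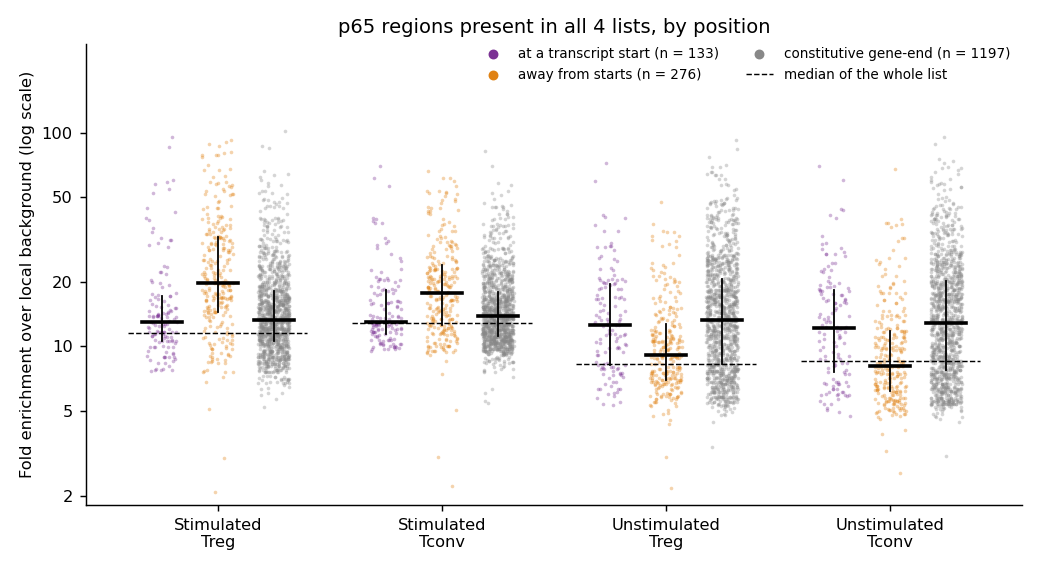
Fold enrichment (log scale) of regions within each of the 4 lists, for constitutive distal regions at and away from transcript starts and for constitutive gene-end regions. Thick lines are medians, thin lines span the quartiles and dashed lines are the median of each whole list; regions at starts have the higher median in both unstimulated lists (12.6 and 12.2, against 9.09 and 8.12 away from starts) and the lower in both stimulated lists (13.0 and 13.1, against 19.9 and 17.7).

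**Figure D3:**
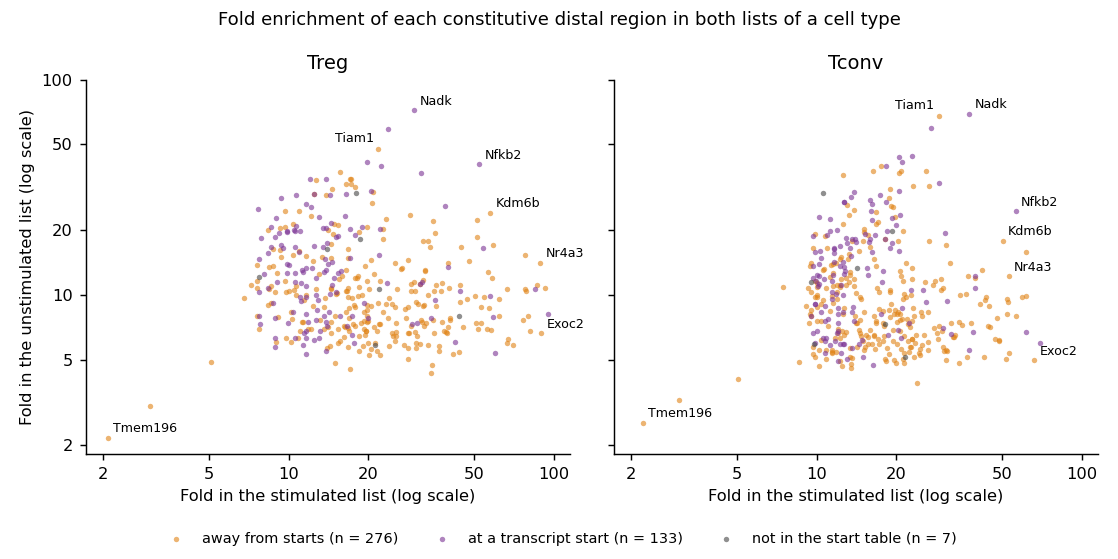
Fold enrichment of each of the 416 regions in the stimulated list (horizontal axis, log scale) and the unstimulated list (vertical axis, log scale) of Treg (left) and Tconv (right), coloured by class. The lists were scaled separately, so a point's distance from the diagonal is no measured change; Nadk and Tiam1 lie high in the unstimulated lists, Exoc2 and Nr4a3 far out in the stimulated lists, and Tmem196 is weak in all 4.

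The region at the start of Nadk, which encodes an NAD kinase that makes NADP, had the highest mean percentile over the 4 lists. It spans chr4:155563086-155564397, with its summit 22 bp from the start. Its fold was 29.8 in stimulated Treg, 37.6 in stimulated Tconv, 72.2 in unstimulated Treg and 69.6 in unstimulated Tconv. It ranked 966 of 11077, 138 of 5734, 4 of 3208 and 6 of 2961 in these lists, so it stood at the very top of the unstimulated lists and high in both others. Dazap1, which encodes an RNA-binding protein, had folds of 23.7, 27.1, 59.3 and 59.8 in the same order of lists, at chr10:80264316-80265376 and 101 bp from a start. Srsf1, which encodes a splicing factor, had 22.3, 20.5, 39.7 and 43.6, at chr11:88047011-88048934 and 224 bp from a start. Tsga10 had 19.8, 22.9, 41.3 and 44.1, 94 bp from a start. These 4 regions at starts shared a place among the top 65 of the unstimulated lists.

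Strong unstimulated values also occurred away from the starts in the table. The region in Tiam1 (chr16:89904723-89906300), whose product activates the GTPase Rac, lay 118 kb from the nearest gene end. It had folds of 21.7 in stimulated Treg, 28.8 in stimulated Tconv, 47.5 in unstimulated Treg and 67.6 in unstimulated Tconv, which ranked it 30 of 3208 and 10 of 2961 in the unstimulated lists. Zc3h14 had 17.1, 25.8, 34.5 and 37.5 and Kcnrg had 17.8, 23.2, 31.6 and 32.2 in the same order. The nearest start in the table was that of another gene in both cases, Ptpn21 at 9511 bp and Dleu2 at 33449 bp. A start that the table lacks may therefore lie nearer to these regions. Both classes therefore held regions near the top of the unstimulated lists.

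**Figure D4:**
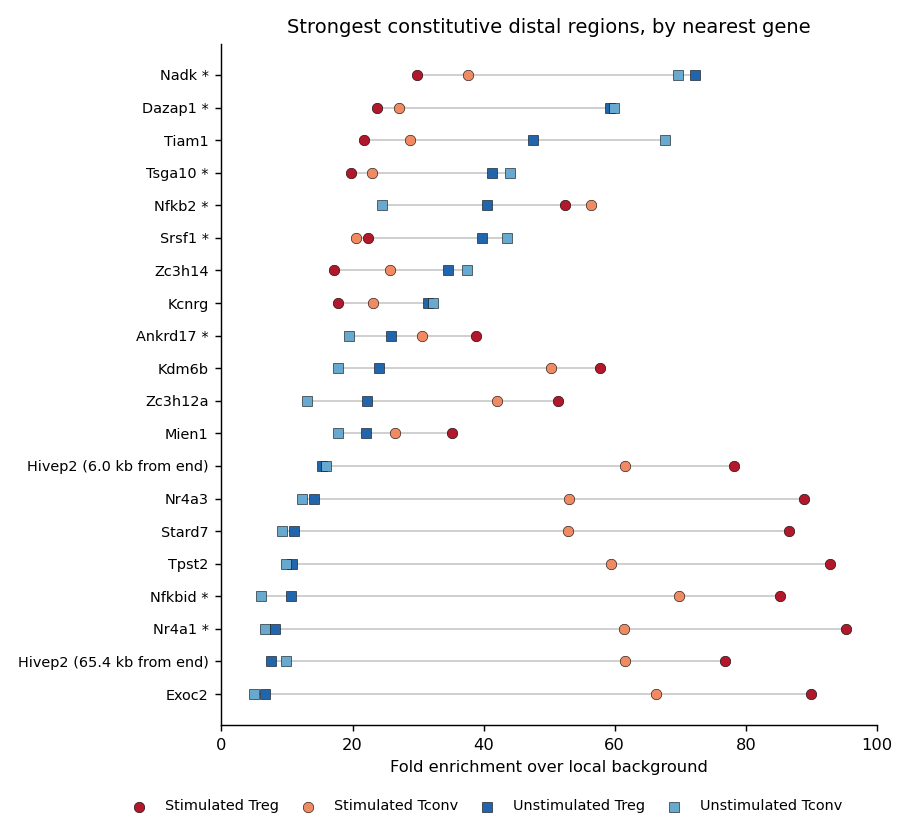
Fold enrichment (horizontal axis) of the regions with the highest mean percentile or among the 5 highest of a list, each row a region named by its nearest protein-coding gene (some not shown), with 1 point for each list. Asterisks mark regions at a transcript start; Nadk, Dazap1 and Tiam1 reach 47.5 to 72.2 in the unstimulated lists, and Nr4a1, Tpst2 and Exoc2 reach 90.0 to 95.3 in the stimulated Treg list.

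Other regions stood near the top of the stimulated lists and well below the top of the unstimulated ones, some under the list median there and some above it. The region at the Nr4a1 start, chr15:101265898-101277504, had folds of 95.3 in stimulated Treg, 61.4 in stimulated Tconv, 8.19 in unstimulated Treg and 6.72 in unstimulated Tconv. Nr4a1 encodes a nuclear receptor induced at once by T cell receptor signals, and a further region 7.45 kb outside the gene had 62.4, 44.5, 7.99 and 7.13. The region in Exoc2 (chr13:30791647-30793180), a subunit of the exocyst that tethers secretory vesicles, had 90.0, 66.3, 6.65 and 4.98. It ranked 9 of 11077 and 4 of 5734 in the stimulated lists but 2225 of 3208 and 2866 of 2961 in the unstimulated lists. The nearest start in the table was that of Irf4, 43.2 kb away, and Irf4 encodes a transcription factor of activated lymphocytes. Tpst2, which encodes a tyrosine sulfotransferase of the Golgi, had 92.8, 59.4, 10.8 and 9.82, and Stard7, which encodes a lipid transfer protein, had 86.6, 52.9, 11.1 and 9.23. Hivep2, which encodes a zinc finger protein that binds kB-like sequences, held a region with 78.2, 61.6, 15.3 and 15.9 and another with 76.9, 61.6, 7.61 and 9.86. Of these, Exoc2 and the regions of Nr4a1 were below the median of both unstimulated lists, and Tpst2, Stard7 and the first Hivep2 region above it.

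The gene lists below were chosen with earlier results of these data known, so their counts are descriptions. The 416 regions were nearest to 393 protein-coding genes, 1.8% of the 21883 in the table; 372 had 1 region and 21 had more, with 3 each at Tex14 and Gm40011. Of 393 listed genes that matched the table, 40 (10.2%) were among them, but listed genes are known T cell or NF-kB genes and were not picked at random. Assignment is by distance alone and does not show which gene a region acts on.

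Among the NF-kB subunits and IkB proteins, 4 of 15 genes had a constitutive distal region. Nfkb2, which encodes the precursor of the p52 subunit, had folds of 52.3 in stimulated Treg, 56.4 in stimulated Tconv, 40.5 in unstimulated Treg and 24.6 in unstimulated Tconv, 27 bp from the start printed above. It was strong in all 4 lists, ranking 189 of 11077, 16 of 5734, 58 of 3208 and 231 of 2961. Nfkbid, which encodes the nuclear IkB protein IkBNS, had 85.3, 69.8, 10.6 and 6.00, 87 bp from a start, and stood near the top of both stimulated lists but not of the unstimulated ones. The regions of the nuclear IkB genes Nfkbiz (25.3, 18.1, 6.08 and 5.03) and Bcl3 (20.1, 12.5, 5.26 and 4.68) were in the lower part of both unstimulated lists. A constitutive region within 1 kb of a gene end was found for 8 of the 15 genes, as it was for 63 of the 393 listed genes and 19.2% of the 6213 genes with any region.

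Among feedback regulators and ubiquitin editors of NF-kB, 7 of 22 genes had a constitutive distal region. Zc3h12a, which encodes the RNase Regnase-1 that cuts immune messenger RNAs, had folds of 51.4 in stimulated Treg, 42.0 in stimulated Tconv, 22.2 in unstimulated Treg and 13.1 in unstimulated Tconv, and was the strongest of these 7 in mean percentile. Tnfaip3 encodes the ubiquitin editor A20, and its region lay 47.0 kb outside the gene and 352 bp from the start of the noncoding gene Gm51814, with folds of 35.8, 16.4, 9.47 and 4.74. The regions of Tnip1, which encodes an A20-binding protein, had 19.5, 14.5, 13.6 and 15.9, and those of Traf1, an adaptor of TNF receptors, 22.2, 14.9, 11.6 and 17.8. Both had folds above the list median in every list. Traf2, a further adaptor (29.8, 23.6, 11.5 and 6.00), Cyld, a deubiquitinase (23.7, 11.5, 7.77 and 9.17), and Tank, an adaptor that binds TRAF proteins (11.7, 10.7, 6.80 and 6.09), completed the list. Tank was below the list median in stimulated Tconv, unstimulated Treg and unstimulated Tconv.

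Immediate-early genes had a constitutive distal region in 5 of 24 cases: Nr4a1, Nr4a3, Fos, Jund and Ier5. The Nr4a3 region, 2.29 kb outside the gene, had folds of 89.0 in stimulated Treg, 53.1 in stimulated Tconv, 14.1 in unstimulated Treg and 12.2 in unstimulated Tconv. The Fos region, 26.7 kb outside the gene for this AP-1 subunit, had 66.7, 51.9, 5.96 and 5.03. Jund, which encodes another AP-1 subunit, had 17.0, 19.1, 8.71 and 9.10, and Ier5 had 15.6, 18.3, 6.11 and 4.91. Nr4a1, Nr4a3 and Fos were thus high within the stimulated lists, and Jund and Ier5 stood lower in them.

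Among receptors, 4 of 27 co-stimulatory and inhibitory receptor genes, 3 of 34 cytokine receptor, JAK and STAT genes and 2 of 32 T cell receptor signalling genes had a region. Cd5, which encodes a receptor that dampens T cell receptor signals, had folds of 60.3 in stimulated Treg, 37.6 in stimulated Tconv, 5.34 in unstimulated Treg and 5.55 in unstimulated Tconv, 93 bp from the start of the noncoding gene A430093F15Rik. Cd69, an early activation antigen, had 53.1, 48.6, 7.38 and 6.14, and Pdcd1, which encodes the inhibitory receptor PD-1, had 41.6, 26.3, 5.31 and 5.54. All these stood in the lower part of the unstimulated lists. Tnfrsf9, which encodes the co-stimulator 4-1BB, had a region with 25.1, 16.4, 14.0 and 14.7 and a weak one with 9.14, 9.66, 7.88 and 5.31. Il6st, the shared receptor chain of the IL-6 family (28.9, 27.9, 10.4 and 11.6), Tgfbr2, a TGF-beta receptor chain (28.3, 24.6, 5.02 and 5.60), and Cblb, a ubiquitin ligase that restrains activation (11.4, 9.38, 9.51 and 7.40), also had a region.

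Genes for naive and lineage transcription factors had a region in 8 of 36 cases. Tox, a regulator of T cell development and exhaustion, had folds of 70.3 in stimulated Treg, 47.0 in stimulated Tconv, 5.84 in unstimulated Treg and 6.24 in unstimulated Tconv, inside the gene and 89.3 kb from its nearest end. Tcf7, which encodes TCF-1 of naive and memory T cells, had a region 30.8 kb outside the gene with 50.8, 36.6, 7.38 and 10.1. Its partner Lef1 had 14.5, 16.7, 10.8 and 13.6, above the list median in every list. Bach2, a repressor that keeps T cells quiescent, had 33.7, 28.7, 9.94 and 6.24, and Ets1, an ETS factor, had 34.7, 19.7, 4.72 and 5.0. Fli1, another ETS factor, had 13.3, 10.0, 14.97 and 11.3 in one region and 24.0, 24.3, 5.81 and 5.35 in another, so that the regions of this gene had opposite orders within the lists. Runx1 (19.8, 20.1, 7.47 and 8.12) and the Ikaros relative Ikzf3 (20.4, 11.5, 14.6 and 12.6) completed the list.

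None of the 24 Treg identity genes had a constitutive distal region, and 21 of them had a region found in a stimulated list and in neither unstimulated list, as did 256 of the 393 listed genes and 61.9% of the 6213 genes with any region. None of 20 MAPK and stress genes or 22 survival genes had a constitutive distal region either. Over all 21883 protein-coding genes the share with such a region was 1.8%, and over the 393 listed genes 10.2%. An empty list of this size is near the share over all genes, so it is no result about its genes. The remaining lists had few: Lta of 23 TNF ligand and cytokine genes, Cxcr4 of 26 matched chemokine and trafficking genes, H2-Q6 of 21 antigen presentation genes, Rpl14 and Rps2 of 34 ribosomal protein genes, and Exoc2 and Stx4a of 39 vesicle traffic genes. Lta encodes lymphotoxin alpha, and its region had folds of 24.6 in stimulated Treg, 16.5 in stimulated Tconv, 9.03 in unstimulated Treg and 6.53 in unstimulated Tconv. Rpl14, at the start of the noncoding gene 5830454E08Rik, had 8.95, 15.7, 22.7 and 17.6. It was below the list median in stimulated Treg and above it in the other lists. Rps2, at the start of Snhg9, had 13.7, 10.7, 12.8 and 8.91. Cxcr4, a chemokine receptor, had 20.4, 14.6, 5.60 and 6.65, H2-Q6, a class Ib MHC gene, had 14.5, 13.9, 10.6 and 11.8, and Stx4a, which encodes a syntaxin of membrane fusion, had 14.0, 12.0, 7.14 and 7.39. H2-Q6 was above the list median in every list.

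Other p65 regions around the constitutive distal regions were also counted. An induced region, found in a stimulated list and in neither unstimulated list, lay within 10 kb of 158 of 416 (38.0%, interval 33.4% to 42.7%), against 40.4% of all joined regions. Over all distal regions it was 52.4% (3572 of 6811, interval 51.3% to 53.6%), above the share of the constitutive ones. With all lists at equal length, 41 of 187 constitutive distal regions (21.9%) had such a neighbour. Shares over all joined or all distal regions were not computed in that setting, so 21.9% cannot be compared with those above. The share was 24.8% (33 of 133) at starts and 43.8% (121 of 276) away from starts, with intervals of 18.2% to 32.8% and 38.1% to 49.7% that did not overlap. It was 16.7% (200 of 1197) for constitutive gene-end regions and 58.1% (1342 of 2309) for distal regions in both stimulated lists only. Both classes thus stood between these comparison groups, and the interval away from starts held the 40.4% of all joined regions. Gimap1, a GTPase of the immunity-associated family, had the most, 5 induced regions within 10 kb of a region with folds of 53.1, 26.3, 8.83 and 6.03. At the level of genes, 205 of the 393 (52.2%) also had an induced region, against 61.9% of 6213 genes with any region, and 28 (7.12%) also had a constitutive gene-end region, against 19.2% (1194 of 6213). These shares are not alike. Each of the 393 genes needed a further region to count, whereas any of the 6213 could count by its only region.

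**Figure D5:**
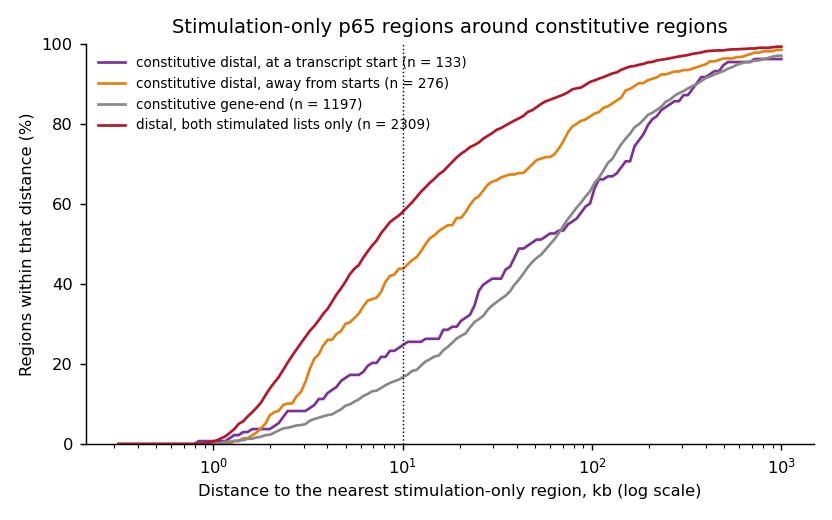
Cumulative percent of regions (vertical axis) with an induced region within a given distance of their summit (horizontal axis, kb, log scale), by class. At the dotted line, 10 kb, the curve stands at 43.8% away from starts and 24.8% at starts, between distal regions in both stimulated lists only (58.1%) and constitutive gene-end regions (16.7%).

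Inside genes, the regions lay toward the 5′ end. Of 234 regions inside a gene of known strand, 189 (80.8%) were nearer to the 5′ end than to the 3′ end, at a median of 20.6% of the gene length. For distal regions in both stimulated lists only it was 765 of 1175 (65.1%), at a median of 36.3%. Regions at transcript starts are counted here, and 117 of the 133 such constitutive distal regions lay inside a gene. Only 4.81% of the distal regions in both stimulated lists only were at a start. The 5′ share was not split by class and not computed over all distal regions. The share inside a gene was 69.5% (interval 64.9% to 73.7%), against 64.1% for distal regions in both stimulated lists only. Over all distal regions it was 66.1% (4504 of 6811), which lies inside that interval. Outside genes, 55 of 96 regions with a known strand were upstream and 41 downstream.

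A gene that does not encode protein began or ended within 1 kb of the summit in 70 of 416 regions (16.8%, interval 13.5% to 20.7%), against 7.99% of all distal joined regions and 6.19% (143 of 2309) of distal regions in both stimulated lists only. Among constitutive gene-end regions the share was 16.1% (193 of 1197, interval 14.1% to 18.3%), close to that of the constitutive distal ones. The nearest such gene was a long noncoding RNA in 59 cases, a small nuclear RNA in 6, a transfer RNA in 4 and a pseudogene in 1. Counting any small RNA gene within 1 kb, 14 of 416 regions had one (3.37%), against 11 of 2309 (0.476%) for distal regions in both stimulated lists only and 30 of 1197 (2.51%) for constitutive gene-end regions. The share over all distal or all joined regions was not computed, so these counts do not show that 3.37% is unusual. All 3 regions in Tex14 lay at a small nuclear RNA gene: 35 bp from Rnu1a1, with folds of 16.4 in stimulated Treg, 11.8 in stimulated Tconv, 7.08 in unstimulated Treg and 5.42 in unstimulated Tconv, 35 bp from Rnu3b2 (13.7, 12.0, 8.80 and 6.65) and 52 bp from Gm22068 (17.4, 20.9, 9.63 and 12.2). A region 24 bp from Rnu2-10, near Arl4d, had 19.3, 10.2, 7.57 and 4.69. Such small RNA genes exist in near-identical copies, and the sources used here do not say how reads that match several copies were treated, so these positions are uncertain.

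The summits of a region were close together in the lists. From the stimulated Treg summit, the median distance was 14 bp to the stimulated Tconv summit, 27 bp to the unstimulated Treg summit and 30 bp to the unstimulated Tconv summit. Distances over 500 bp occurred in 23, 49 and 53 of the 416 regions, of which 20, 45 and 49 were away from starts and 3, 3 and 3 at starts. In those regions the strongest site differed between lists, so presence in all lists is not always presence at the same site. Several summits were merged in 147 regions (35.3%) in the stimulated Treg list, 96 (23.1%) in stimulated Tconv, 56 (13.5%) in unstimulated Treg and 41 (9.86%) in unstimulated Tconv.

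The windows around the 133 starts had a median GC content of 65.7% and 28 CpG, against 52.7% and 7 over all 32851 RefSeq start windows. A kB motif was found in 15 (11.3%), against 8.46% of all start windows, which lies inside the interval of 6.95% to 17.8%. The NRF1 motif was found in 9 (6.77%), against 0.971%, and the ETS motif CCGGAAG in 25 (18.8%), against 8.86%. The AP-1 motif TGANTCA was found in 5 (3.76%), against 7.81%. The starts covered by constitutive distal regions were thus richer in CpG, NRF1 and ETS matches than RefSeq starts at large, and for the kB motif no such difference was detectable. Constitutive gene-end regions at starts had a median GC content of 65.7% and 29 CpG. Of these, 10.7% had NRF1, 21.3% ETS, 4.13% AP-1 and 14.1% kB. The richness in CpG, NRF1 and ETS was thus shared with the gene-end class. Distal regions in both stimulated lists only had 0 of 108 with NRF1, 18.5% with AP-1 and 15.7% with kB.

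Within the 133 starts, motif shares were compared between regions of higher and lower fold. A kB motif was found in 2 of 68 windows (2.94%) whose region was at or above their median fold of the unstimulated Treg list, against 13 of 65 (20%) below it. The NRF1 motif showed the opposite order, with 8 of 68 (11.8%), against 1 of 65 (1.54%). This split was chosen after the values were seen. Split at the median fold of the stimulated Treg list instead, kB was found in 8 of 67 windows at or above it and 7 of 66 below, and NRF1 in 3 of 67 and 6 of 66, so kB showed no such difference there. The 15 starts with a kB motif had median folds of 14.8 in stimulated Treg, 13.6 in stimulated Tconv, 7.97 in unstimulated Treg and 6.65 in unstimulated Tconv, and the 9 with an NRF1 motif 10.9, 12.5, 16.7 and 16.4. Of the printed starts, Tgif1, which encodes a repressor of TGF-beta signalling, had 54.3, 39.5, 16.6 and 12.2, and Egf, which encodes a growth factor, had 8.56, 10.2, 20.6 and 23.1. The start of B330016D10Rik, near the gene for the transcriptional repressor Spen, had 20.4, 20.4, 30.5 and 30.3. Nfkb2 and Tgif1 were the kB starts at or above the median unstimulated Treg fold, which was 12.6. A match describes these letters alone and does not show that a factor was bound there.

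The members with the lowest mean percentile were Rpl22 (8.90, 9.82, 5.72 and 5.97), Rptor (7.74, 9.87, 6.97 and 5.17), Gm14496 (5.08, 5.05, 4.89 and 4.05), Csf2ra (3.01, 3.03, 3.03 and 3.25) and Tmem196 (2.08, 2.21, 2.16 and 2.55 in stimulated Treg, stimulated Tconv, unstimulated Treg and unstimulated Tconv). The last 3 were near the bottom of every list. The thresholds of the rule cut through a continuous range of distances. The members closest to a gene end were Gramd4 at 1010 bp, with folds of 10.0, 9.70, 13.8 and 13.7, Sp3 at 1017 bp (23.5, 17.7, 11.4 and 11.4) and Tmem106c at 1017 bp (13.8, 20.9, 34.7 and 41.4). Just short of 1 kb, and not members, were Spg11 at 997 bp (13.3, 13.3, 18.6 and 17.4), Eapp at 995 bp (21.6, 18.1, 13.6 and 20.1) and Eif4e at 990 bp (20.9, 22.8, 26.7 and 22.3). All 3 members had a start within 500 bp. The members farthest from a gene were Cstad at 49.7 kb (15.6, 12.5, 37.2 and 36.2), Tnfaip3 at 47.0 kb and Rbx1 at 46.9 kb (9.05, 9.54, 12.6 and 10.3), and just beyond 50 kb lay regions near Gpc5 at 52.6 kb (11.4, 7.36, 8.30 and 6.65), Chd2 at 53.7 kb (31.5, 19.2, 6.83 and 9.46) and Mrpl46 at 56.1 kb (15.3, 22.6, 7.63 and 5.54).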

How the data were processed

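The deposited files are 4 peak lists, 1 for each immunoprecipitated group, named as peaks of pooled replicates with blacklisted regions removed and a conservative IDR (reproducibility) filter. The submitters' processing notes name MACS2 2.1.1.20160309, BWA 0.7.15-r1140, Trim Galore 0.4.1 and build mm10; the sources used here do not say how the input libraries entered. Each entry's fold enrichment is the authors' ratio over local background. The −log10 p of each entry is the authors' value, used for 2 thresholds, and the deposited score was not used. The lists hold no read numbers, so depth is unknown. A deeper library can give a longer list, and the common cut-off and equal list lengths below bear on this.

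Python 3.11.15, NumPy 2.4.6, pandas 2.3.3, SciPy 1.17.1 and Matplotlib 3.10.9 were used. Genes came from RefSeq for GRCm38.p6 (21883 protein-coding), with the same coordinates as mm10, and starts from its 32851 windows of 300 bases, a table that is not complete and holds none on chromosome 18. The design called for motifs within 150 bp of every summit; no genome was used, so start windows were searched instead, a choice made after the data were seen, as was the distance of 500 bp. The code was tested on simulated lists. Members and gene lists were chosen with earlier results of these data known. Named genes are those of the 15 regions with the highest and 5 with the lowest mean percentile, the 5 highest folds of each list, genes with 3 regions, listed genes, 5 at noncoding gene ends, and 3 on each side of each distance threshold; some are given only in a figure and some are not reported here, and Tgif1, Egf, Spen, Gimap1 and Arl4d were added after their values were seen.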

Additional observations from a re-analysis of the deposited data

How the results depend on the processing

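Of 112 recomputed values, 85 stayed within their spread or within 1.5 times, 25 moved and 2 reversed. The number of regions was 212 with a gene-end distance of 5 kb, 162 with a common −log10 p cut-off of 38.1 and 187 with 3132 entries in each list; the number of genes was 200, 161 and 177, and the share at a transcript start 24.6%, 41.5% and 17.4%. Starts within 250 bp gave 26.9%, and within 1 kb 37.7%. The share inside a gene was 64.3% with a gene-end distance of 2 kb, 74.7% with the common cut-off, 62.0% at equal lengths, 80.3% with a gene distance of 10 kb and 77.0% when all genes were used. The share with an induced region nearby was 26.2% within 5 kb, 64.7% within 50 kb and 21.9% at equal lengths, where the share at a noncoding gene end was 12.8%. The median fold at starts minus that away from starts was −2.99 in stimulated Treg and −0.735 in stimulated Tconv with the common cut-off, and reversed to 0.725 and 1.23 at equal lengths; the cause was not tested. The median fold of all members was 16.7 in unstimulated Treg and 15.9 in unstimulated Tconv with the common cut-off, and 30.3 in stimulated Treg at equal lengths, since both settings drop the weaker entries. The motif search around all summits was not run, for lack of a genome. No paired analysis was possible because each group has 1 list of pooled libraries, and no replicate could be left out for the same reason. Depth is unknown and may limit what the shorter lists could hold, which was not tested.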
